A study of Mus musculus with 9 samples.

Results

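Tuft cell genes are the transcripts that mark a rare chemosensory epithelial cell found in the gut, the airways and the medulla of the thymus. The members were chosen by symbol: Pou2f3, Trpm5, Plcb2, Gnb3, Gnat3, Avil, Dclk1, Il25, Alox5ap and Ltc4s. Of these 10 genes, 9 were measured, by 19 probe sets, among 18194 genes in all. No probe set carried the symbol Gnat3 in the annotation table used here, so it has no value.

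The titles of the 9 arrays gave 3 groups of 3, ZsG plus, ZsG minus mTEC and ZsG minus cTEC, where mTEC and cTEC are medullary and cortical thymic epithelial cells. Every mouse was on the C57BL/6 background, had an age of 8 to 20 weeks and bore a bacterial artificial chromosome in which the green fluorescent protein ZsGreen (ZsG) stands at the start codon of Tslp, so the ZsG minus cells come from reporter mice as well. The transgene reports promoter activity of a cytokine gene and was not built to mark tuft cells, and the sources used here do not say which part of the thymus the ZsG plus cells were sorted from. The cell type field of all 9 samples reads keratinocytes, against the titles, which set the groups here. No label says that the replicates came from separate animals, so each p-value covers the spread seen among these arrays alone, and that spread may be technical.

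A tuft cell senses its surroundings with the pathway that taste cells use. A receptor releases the G protein subunits Gnat3, Gnb3 and Gng13, phospholipase Plcb2 makes the second messenger that frees calcium through an Itpr channel, and the calcium opens the cation channel Trpm5. The cell responds with the cytokine Il25 and with lipid mediators: Alox5ap helps start leukotriene synthesis and Ltc4s makes the cysteinyl leukotrienes. Pou2f3, a POU homeodomain transcription factor, is required for the tuft lineage. In the thymus these cells lie in the medulla and make Il25, and they are known to act on thymocytes and innate lymphoid cells nearby.

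The titles were set against 6 markers of each epithelial type. All 6 cortical markers read lower on every ZsG plus array and every ZsG minus mTEC array than on any ZsG minus cTEC array, and 3 and 1 of them passed the test. Prss16, a serine protease of cortical epithelium, had intensities of 1543, 2069 and 505 on the ZsG plus arrays and 2556, 4051 and 2513 on the ZsG minus mTEC arrays, against 49672, 41699 and 55909 on the ZsG minus cTEC arrays. Aire, the regulator of tissue antigen display in medullary epithelium, read 15751, 23622 and 13180 in ZsG plus and 18139, 17983 and 23991 in ZsG minus mTEC, against 1236, 2419 and 2571 in ZsG minus cTEC. Of the 6 medullary markers 5 had positive differences over ZsG minus cTEC in each comparison, and 2 passed the test in each. The keratins were mixed. Krt5 had geometric means of 17051 in ZsG plus cells, 13137 in ZsG minus mTEC cells and 13398 in ZsG minus cTEC. Krt14 had 2043 in ZsG plus cells, 7647 in ZsG minus mTEC cells and 2372 in ZsG minus cTEC. Its ZsG minus mTEC arrays all lay above its ZsG minus cTEC arrays, while its ZsG plus arrays read 9332, 4428 and 206. The ZsG plus arrays stood apart from the rest in spread. Median intensity over all probe sets was 230 to 316 there, against 366 to 424 in ZsG minus mTEC cells and 376 to 404 in ZsG minus cTEC, and the median SD of a gene on the log2 scale was 1.30 in ZsG plus cells, 0.63 in ZsG minus mTEC cells and 0.61 in ZsG minus cTEC. As a yardstick for dim signal, 6 probe sets for the bacterial transcripts PheX and DapX read 3.77 to 341 over the 9 arrays (median 45.6), although whether those transcripts were added to the RNA is not given in the sources used here. The highest of them was 341 on ZsG plus replicate 2 and 48.7 to 307 on the other arrays. The control range is pooled over the arrays, so a value within it can exceed every control of its own array.

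Transcripts of several tuft cell genes were measured well above the control range in every group, and no member passed the test for a difference between groups. Avil, Trpm5, Dclk1 and Plcb2 were above the control range on all 9 arrays, in ZsG plus, ZsG minus mTEC and ZsG minus cTEC alike. Summed over the 9 genes, intensity was 22850 to 36930 in ZsG plus and 17565 to 24081 in ZsG minus mTEC, against 8151, 10320 and 27208 in ZsG minus cTEC. The cortical sums were thus low on replicates 1 and 2 only, and the sum on replicate 3 was above that of every ZsG minus mTEC array. That sum came mostly from Trpm5 (8579), Avil (7068) and Dclk1 (6233). Pou2f3 (780) and Plcb2 (1452) were lower on cortical replicate 3 than on every ZsG minus mTEC array. In bulk samples, fewer cells of a type and less RNA per cell cannot be told apart.

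In ZsG plus versus ZsG minus mTEC, limma with Benjamini-Hochberg adjustment over all genes called 0 of 9 members higher and 0 lower at an adjusted p under 0.05, where 0.0165% of all genes were called higher and 0.203% lower. At an unadjusted p under 0.05 it again found 0 members, against 13.4% of all genes, and the groups were fully separated for 0 members, against 18.1% of all genes. In ZsG plus versus ZsG minus cTEC, 0 members were called, where 0.599% of all genes were called higher and 1.14% lower. There 1 member, Gnb3, had an unadjusted p under 0.05, against 18.7% of all genes, and 0 members had separate groups, against 23.3%. In ZsG minus mTEC versus ZsG minus cTEC, 0 members were called as well, where 0.528% of all genes were called higher and 0.0989% lower. There 1 member, Pou2f3, had an unadjusted p under 0.05, against 12.3% of all genes, and 2 members, Pou2f3 and Plcb2, had separate groups, against 28.5%. With 9 members and shares this small, 0 called members is the likely outcome for a list drawn at random from all genes. None of these counts sets the members apart from all genes.

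The members' log2 differences had a median of -0.16 in ZsG plus versus ZsG minus mTEC (4 positive, 5 negative), 0.56 in ZsG plus versus ZsG minus cTEC (6 positive, 3 negative) and 0.50 in ZsG minus mTEC versus ZsG minus cTEC (6 positive, 3 negative). The median over all genes was itself -0.33, -0.14 and 0.09 in these comparisons, so relative to it the members' medians were 0.17, 0.70 and 0.40, and 39%, 46.3% and 53.9% of all genes had a positive difference. Both comparisons with ZsG minus cTEC share its 3 arrays and are not independent. The plot of differences shows how wide the intervals are.

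**Figure D1:**
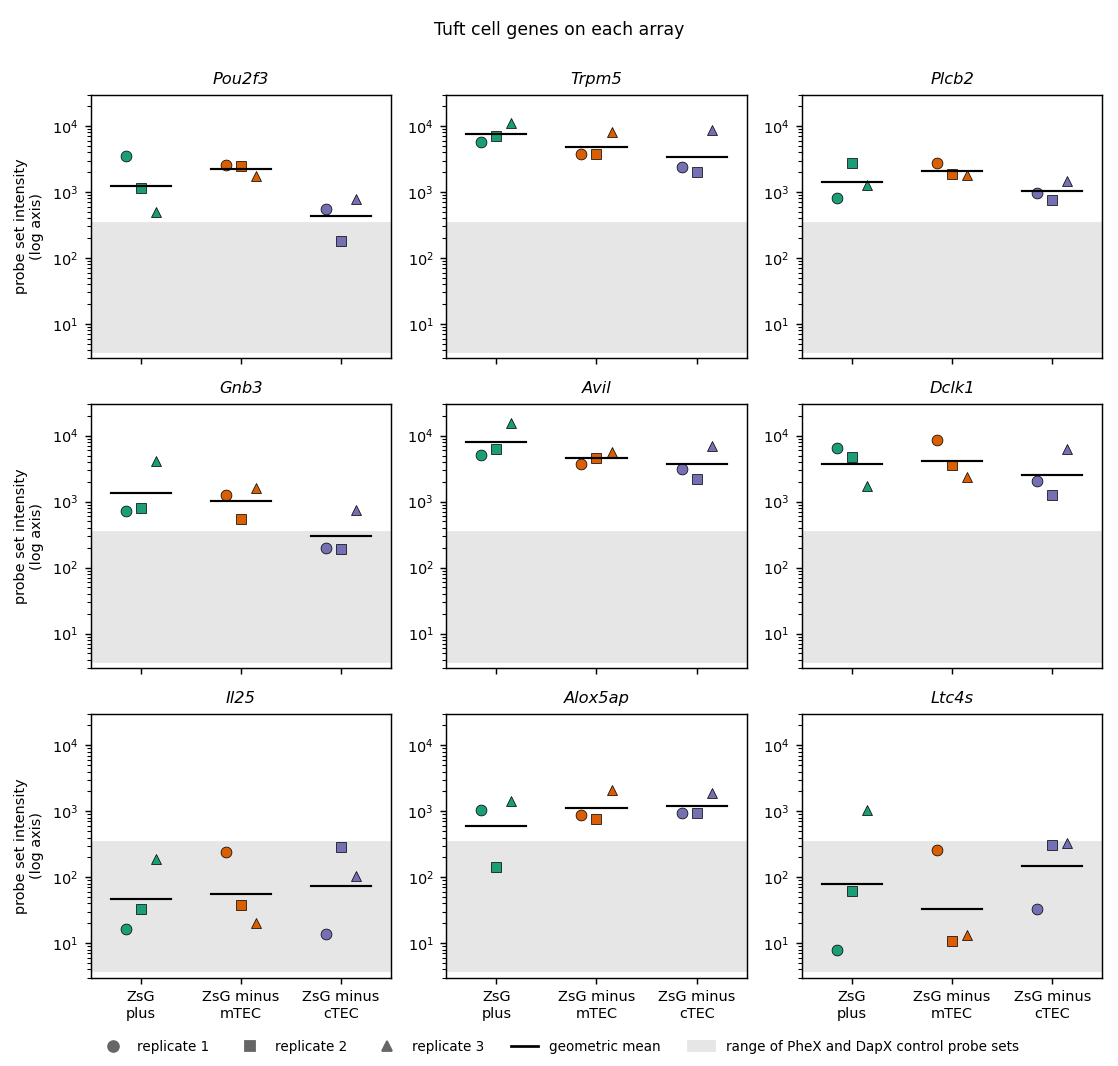
Intensity of each measured tuft cell gene (vertical, log axis) on the 3 ZsG plus, 3 ZsG minus mTEC and 3 ZsG minus cTEC arrays, with bars at geometric means and the control range of 3.77 to 341 shaded. Pou2f3 and Plcb2 are the members whose ZsG minus mTEC points all lie above the ZsG minus cTEC points, while Il25 lies within the shading on all 9 arrays.

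The lineage regulator Pou2f3 differed most between the 2 reporter-negative populations. Its intensity was 3479, 1135 and 491 in ZsG plus cells, 2534, 2451 and 1754 in ZsG minus mTEC, and 557, 180 and 780 in ZsG minus cTEC. All 3 medullary arrays lay above all 3 cortical ones, whereas the ZsG plus arrays ran across both groups. The log2 difference of ZsG minus mTEC over ZsG minus cTEC was 2.37 ± 0.84 (SE), a 5.18-fold difference in geometric mean, with a 95% interval of 0.49 to 4.25, an unadjusted p of 0.0187 and an adjusted p of 0.269 (limma). Fitted on the 6 arrays of these 2 groups alone, the SE was 0.61 and the adjusted p 0.0983 (limma). ZsG plus differed from ZsG minus cTEC by 1.54 ± 0.84 (adjusted p = 0.354) and from ZsG minus mTEC by -0.83 ± 0.84 (interval -2.71 to 1.05, adjusted p = 0.681). The value over ZsG minus cTEC was thus smaller for reporter-positive cells than for the medullary cells that lacked the reporter, with ranges that overlap.

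Trpm5, the cation channel at the end of the pathway, was highest on average in ZsG plus. It read 5741, 6947 and 11162 in ZsG plus cells, 3801, 3721 and 8079 in ZsG minus mTEC, and 2385, 1982 and 8579 in ZsG minus cTEC. Replicate 3 of each ZsG minus group overlapped the ZsG plus range. The log2 difference was 0.65 ± 0.71 (SE) over ZsG minus mTEC (interval -0.94 to 2.25, adjusted p = 0.707) and 1.15 ± 0.71 over ZsG minus cTEC (interval -0.45 to 2.75, adjusted p = 0.416). ZsG minus mTEC differed from ZsG minus cTEC by 0.50 ± 0.71 (adjusted p = 0.897). Without replicate 3 of ZsG minus cTEC, the ZsG plus difference over that group was 1.81 (adjusted p = 0.267).

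Gnb3, the G protein beta subunit of taste and cone photoreceptor cells, had the largest difference of any member between ZsG plus and ZsG minus cTEC. It read 722, 796 and 4136 in ZsG plus cells, 1277, 546 and 1598 in ZsG minus mTEC, and 201, 192 and 739 in ZsG minus cTEC. Cortical replicates 1 and 2 fell within the pooled control range, although above the highest control of their own arrays (128 and 142). Cortical replicate 3, at 739, lay just above the lowest ZsG plus array. The log2 difference of ZsG plus over ZsG minus cTEC was 2.13 ± 0.88 (SE; 4.36-fold, interval 0.14 to 4.11), with an unadjusted p of 0.0386 and an adjusted p of 0.238. ZsG minus mTEC over ZsG minus cTEC gave 1.76 ± 0.88 (adjusted p = 0.478), and ZsG plus over ZsG minus mTEC gave 0.36 ± 0.88 (adjusted p = 0.882). The last of these rested on ZsG plus replicate 3: without it the difference was -0.45. Cone photoreceptors also make Gnb3. Of 6 photoreceptor markers listed 5 were measured, and their summed intensity was 1005, 1111 and 4555 in ZsG plus, against 1183 to 1624 in ZsG minus mTEC cells and 700 to 996 in ZsG minus cTEC. The sum on ZsG plus replicate 3 came from Gnat1 (2804) and Opn1sw (1676), while Gnat2 (9.3), Pde6b (22.7) and Arr3 (42.6) were within the control range there. Their part in the Gnb3 value was not tested.

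Plcb2, the phospholipase of the pathway, was the other member that separated the reporter-negative groups. It read 818, 2732 and 1277 in ZsG plus cells, 2734, 1887 and 1810 in ZsG minus mTEC, and 980, 761 and 1452 in ZsG minus cTEC. Every ZsG minus mTEC array lay above every ZsG minus cTEC array, and the ZsG plus arrays spanned nearly the whole range. The log2 difference of ZsG minus mTEC over ZsG minus cTEC was 1.04 ± 0.62 (SE, interval -0.35 to 2.42, adjusted p = 0.58). With only the 6 arrays compared its SE was 0.41 (limma adjusted p = 0.23). ZsG plus differed from ZsG minus cTEC by 0.47 ± 0.62 (adjusted p = 0.717) and from ZsG minus mTEC by -0.57 ± 0.62 (adjusted p = 0.705), and this last sign turned to 0.06 when each array was centred on its median gene.

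Avil, an actin-binding protein of the villin family found in the tuft of microvilli, ran parallel to Trpm5. It read 5046, 6322 and 15496 in ZsG plus cells, 3755, 4582 and 5654 in ZsG minus mTEC, and 3152, 2239 and 7068 in ZsG minus cTEC. The highest value stood on ZsG plus replicate 3, and cortical replicate 3 exceeded 2 of the 3 ZsG plus arrays. The log2 difference was 0.78 ± 0.66 (SE) for ZsG plus over ZsG minus mTEC (interval -0.72 to 2.28, adjusted p = 0.627) and 1.10 ± 0.66 for ZsG plus over ZsG minus cTEC (interval -0.39 to 2.60, adjusted p = 0.404). ZsG minus mTEC and ZsG minus cTEC differed by 0.32 ± 0.66 (adjusted p = 0.944). Without the array of ZsG plus replicate 3, the difference of ZsG plus over ZsG minus mTEC was 0.30 for Avil and 0.38 for Trpm5.

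Dclk1, a microtubule-associated kinase widely used to stain intestinal tuft cells, overlapped in all groups. It read 6391, 4681 and 1727 in ZsG plus cells, 8608, 3561 and 2331 in ZsG minus mTEC, and 2058, 1256 and 6233 in ZsG minus cTEC. Cortical replicate 3 was nearly as high as the highest ZsG plus array. ZsG plus differed by -0.16 ± 0.83 (SE) from ZsG minus mTEC (interval -2.03 to 1.72, adjusted p = 0.952; 0.47 with each array centred on its median gene) and by 0.56 ± 0.83 from ZsG minus cTEC (adjusted p = 0.754). ZsG minus mTEC differed from ZsG minus cTEC by 0.72 ± 0.83 (adjusted p = 0.85).

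**Figure D2:**
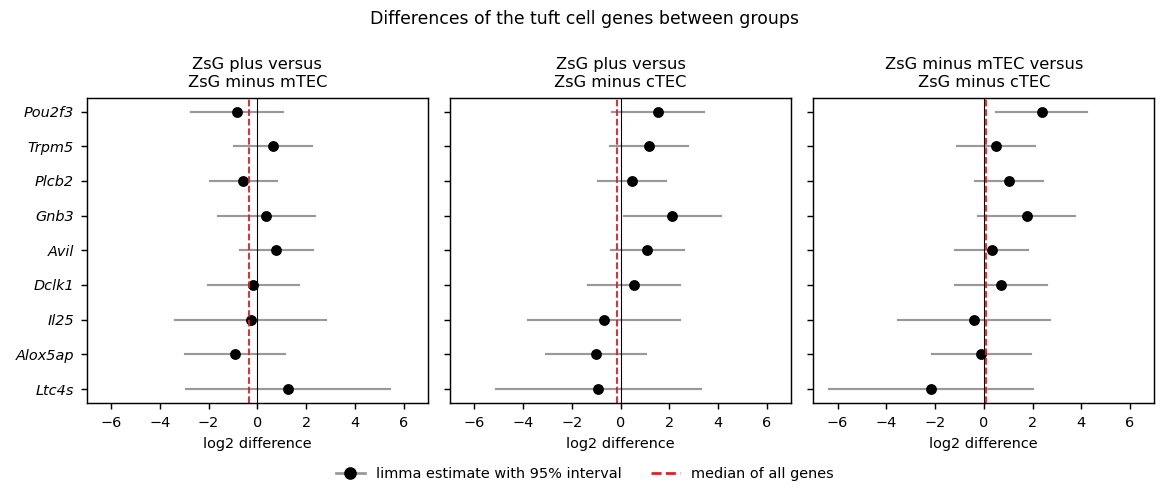
Log2 difference (horizontal) of each tuft cell gene in the 3 comparisons, with limma's 95% interval, and the median over all genes as a dashed line at -0.33, -0.14 and 0.09. Intervals that leave out 0 before adjustment are those of Gnb3 in ZsG plus versus ZsG minus cTEC and of Pou2f3 in ZsG minus mTEC versus ZsG minus cTEC.

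The effector genes were dim or overlapped between groups. Il25, the cytokine by which gut tuft cells alert innate lymphoid cells, read 16.4, 33 and 187 in ZsG plus cells, 242, 37.8 and 19.9 in ZsG minus mTEC, and 13.8, 287 and 105 in ZsG minus cTEC. All 9 values lie within the pooled control range. The 242 on ZsG minus mTEC replicate 1 and 287 on ZsG minus cTEC replicate 2 exceeded their own arrays' highest controls (131 and 142). The 3 groups overlapped, so the arrays set no order for it. Its log2 difference of -0.28 ± 1.38 (SE) in ZsG plus versus ZsG minus mTEC had an interval of -3.39 to 2.83 (adjusted p = 0.948). Ltc4s, the leukotriene synthase, read 7.89, 61.7 and 1045 in ZsG plus cells, 259, 10.8 and 13.4 in ZsG minus mTEC, and 33.1, 309 and 329 in ZsG minus cTEC. Ltc4s was above the pooled control range on 1 array, ZsG plus replicate 3. On ZsG minus mTEC replicate 1 and ZsG minus cTEC replicates 2 and 3 it exceeded those arrays' own highest controls (131, 142 and 241). Its log2 difference of 1.26 ± 1.86 (SE) in ZsG plus versus ZsG minus mTEC had an interval of -2.94 to 5.46 (adjusted p = 0.791). Relative to ZsG minus cTEC, ZsG plus differed by -0.68 ± 1.38 for Il25 (adjusted p = 0.823) and -0.91 ± 1.86 for Ltc4s (adjusted p = 0.826), and ZsG minus mTEC by -0.40 ± 1.38 (adjusted p = 0.977) and -2.16 ± 1.86 (adjusted p = 0.767). Differences in these 2 genes were not detectable at this signal.

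Alox5ap, the protein that presents arachidonic acid for leukotriene synthesis, was above the control range on 8 of 9 arrays. It read 1034, 141 and 1409 in ZsG plus cells, 871, 770 and 2087 in ZsG minus mTEC, and 941, 946 and 1924 in ZsG minus cTEC. Apart from the low ZsG plus replicate 2, the groups covered the same range. The log2 difference was -0.92 ± 0.91 (SE) for ZsG plus over ZsG minus mTEC (adjusted p = 0.676) and -1.02 ± 0.91 for ZsG plus over ZsG minus cTEC (adjusted p = 0.582); without ZsG plus replicate 2 they were 0.11 and 0.01. ZsG minus mTEC differed from ZsG minus cTEC by -0.10 ± 0.91 (interval -2.14 to 1.95, adjusted p = 0.992). This gene is also made by myeloid cells, and the 9 macrophage and dendritic cell markers summed to 34440 to 112799 in ZsG plus cells, 42434 to 57524 in ZsG minus mTEC cells and 22447 to 62744 in ZsG minus cTEC. Per array, 1 to 2 of these 9 markers were within the control range in ZsG plus cells, 2 to 3 in ZsG minus mTEC cells and 1 to 2 in ZsG minus cTEC. The lysozyme gene Lyz2 was at 6909 or more on every array, and Adgre1 was within the control range on 7 arrays. The part of such cells in the Alox5ap values was not tested.

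Trpm5 and Dclk1 were measured by several probe sets, and the choice mattered for Dclk1. A further probe set of Trpm5, 1443413_s_at, followed the one used: it read 5100, 4283 and 13804 in ZsG plus cells, 2753, 3241 and 7832 in ZsG minus mTEC, and 3089, 1468 and 10238 in ZsG minus cTEC. The remaining one, 1449224_at, was dimmer and had the opposite sign in ZsG plus versus ZsG minus cTEC, at -0.55 ± 1.45 (SE). The 9 probe sets of Dclk1 gave log2 differences of -3.49 to 0.70 in ZsG plus versus ZsG minus mTEC, -3.31 to 0.83 in ZsG plus versus ZsG minus cTEC and -0.81 to 1.5 in ZsG minus mTEC versus ZsG minus cTEC. The most negative in the ZsG plus comparisons, 1435940_at, read 21.4, 899 and 30.5 in ZsG plus, against 911, 599 and 1531 in ZsG minus mTEC cells and 1394, 544 and 758 in ZsG minus cTEC. None of these 9 passed the test over all probe sets. Probe sets of one gene can detect different transcripts, and Dclk1 has several.

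**Figure D3:**
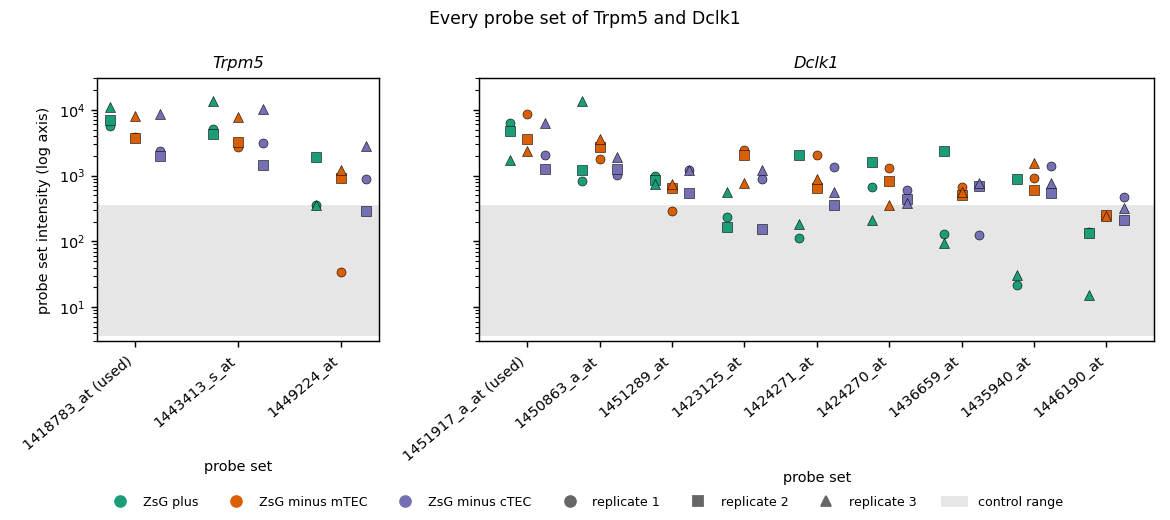
Intensity (vertical, log axis) of every probe set of Trpm5 and Dclk1 on the 9 arrays, coloured by group, in the order ZsG plus, ZsG minus mTEC and ZsG minus cTEC from the left within each probe set. The 2 brighter Trpm5 probe sets share a pattern with replicate 3 high in each group, while the Dclk1 probe sets differ among themselves, with ZsG plus replicates 1 and 3 of 1435940_at at 21.4 and 30.5.

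The members did not vary as 1 block. Avil, Trpm5 and Gnb3 went up and down together over the 9 arrays, Pou2f3 followed the Dclk1 probe set used, and Il25 followed Ltc4s. Over 36 pairs of members the median Pearson r of log2 intensity was 0.17, 5 pairs were above 0.7 and 8 were negative. These are descriptions over 9 arrays that share amplification and scaling within each array. Avil and Trpm5 had r = 0.92 (Spearman's rho 0.97) and 0.89 for deviations from the group means. It was 0.95 without the 2 arrays farthest from the median of Avil, ZsG plus replicate 3 and ZsG minus cTEC replicate 2. Avil and Gnb3 had r = 0.85, which was 0.50 without the same 2 arrays. Trpm5 and Gnb3 had r = 0.85, which was 0.60 without the 2 arrays farthest in Trpm5, ZsG minus cTEC replicates 1 and 2. That value keeps ZsG plus replicate 3. Pou2f3 and Dclk1 had r = 0.75 (rho 0.83), 0.80 within groups and 0.53 without the 2 arrays farthest in Pou2f3, ZsG minus cTEC replicate 2 and ZsG plus replicate 1. These values hold for the Dclk1 probe set used. The next brightest, 1450863_a_at, read 823, 1218 and 13832 in ZsG plus, where Pou2f3 read 3479, 1135 and 491. The regulator Pou2f3 and Avil had r = 0.12, and -0.17 within groups. The r of 0.87 between Il25 and Ltc4s is one between signals within the control range on 9 and 8 of the 9 arrays.

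**Figure D4:**
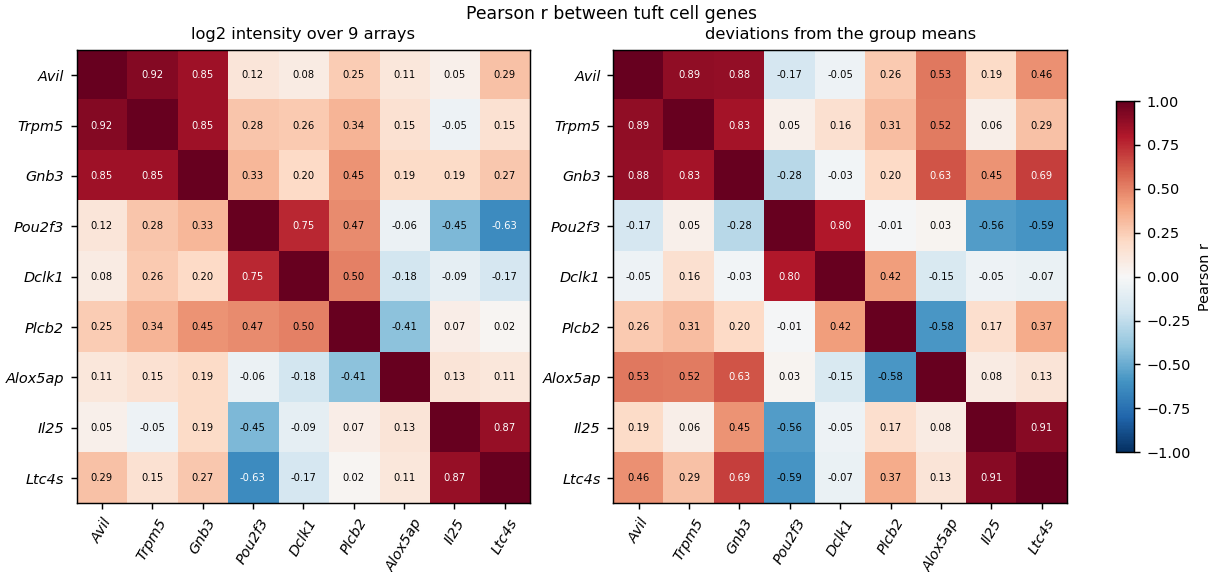
Pearson r between each pair of measured tuft cell genes over the 9 arrays, for log2 intensity (left) and for deviations from the group means (right). The block of Avil, Trpm5 and Gnb3 is at 0.85 to 0.92 on the left, and Pou2f3 with Dclk1 is at 0.75 there.

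Among 10909 genes above the 40th percentile of mean intensity, those most like the mean of Avil and Trpm5 over the 9 arrays were Marveld3 (r = 0.972), Myo15b (0.931), 1810046K07Rik (0.915), Sh2d6 (0.901) and Prok2 (0.895). Without ZsG plus replicate 3 and ZsG minus cTEC replicate 2, the arrays farthest from the median, these were 0.94, 0.86, 0.72, 0.71 and 0.69. Marveld3 encodes a tight junction protein, and it read 2689, 2640 and 14540 in ZsG plus cells, 1484, 1901 and 2919 in ZsG minus mTEC, and 619, 580 and 3354 in ZsG minus cTEC. Sh2d6 is listed among tuft cell markers, and it read 1331, 3144 and 6105 in ZsG plus cells, 1638, 2387 and 2270 in ZsG minus mTEC, and 1481, 620 and 4231 in ZsG minus cTEC. 1810046K07Rik read 4855, 12880 and 29339 in ZsG plus cells, 5155, 3555 and 4846 in ZsG minus mTEC, and 2392, 1074 and 5997 in ZsG minus cTEC. As in Avil and Trpm5, replicate 3 was the highest array of ZsG plus and of ZsG minus cTEC for all 3 of these genes. Their choice by likeness over the same 9 arrays favours such a shared peak, so it is no separate result. Of the 29 genes of the 3 further tuft cell lists that were ranked, 17 had a positive r to Avil and Trpm5 and 12 a negative one, with a median of 0.091 and a range of -0.695 (Lta4h) to 0.901 (Sh2d6).

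**Figure D5:**
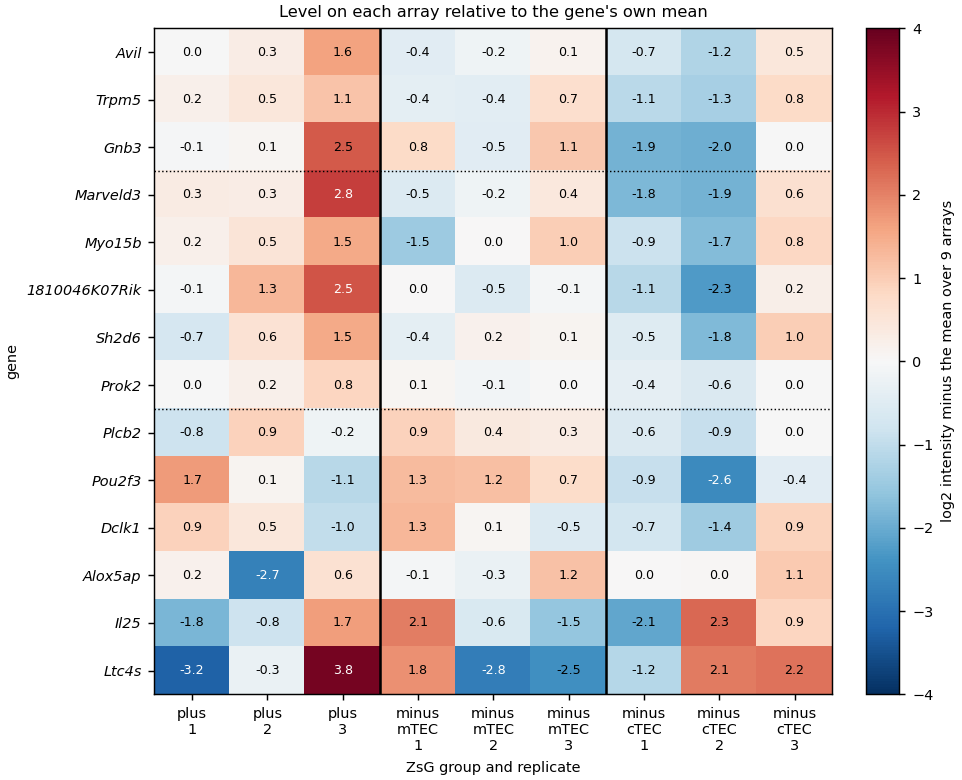
Log2 intensity minus the gene's own mean over the 9 arrays (colour and printed value), for Avil, Trpm5 and Gnb3 (top), genes with a like pattern (middle) and the other tuft cell genes (bottom), by group and replicate. ZsG plus replicate 3 is at 1.6 for Avil, 1.1 for Trpm5 and 2.5 for Gnb3. It is at -1.1 for Pou2f3 and -1.0 for the Dclk1 probe set used.

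The start regions of Avil, Trpm5 and 1 gene with a like pattern are shown because Pou2f3 binds the octamer motif of POU factors. Each line gives the 250 bases before the RefSeq start, 5′ to 3′ on the gene's strand, in build GRCm38.p6. Capitals mark ATGCAAA, the core of the octamer ATGCAAAT, on either strand, or the whole octamer where it is complete.
Avil, chr10:127000459-127000708, plus strand: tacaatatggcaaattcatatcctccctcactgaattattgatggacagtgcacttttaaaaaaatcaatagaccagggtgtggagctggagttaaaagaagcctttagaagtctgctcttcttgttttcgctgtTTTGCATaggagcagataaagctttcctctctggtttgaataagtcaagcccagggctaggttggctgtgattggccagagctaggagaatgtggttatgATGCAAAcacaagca
Trpm5, chr7:143094643-143094892, minus strand: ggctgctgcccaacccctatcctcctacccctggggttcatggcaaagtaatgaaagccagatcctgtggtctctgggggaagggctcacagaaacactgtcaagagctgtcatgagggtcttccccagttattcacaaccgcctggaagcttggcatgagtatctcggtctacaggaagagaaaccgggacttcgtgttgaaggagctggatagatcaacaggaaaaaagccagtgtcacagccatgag
1810046K07Rik, chr9:51328919-51329168, minus strand: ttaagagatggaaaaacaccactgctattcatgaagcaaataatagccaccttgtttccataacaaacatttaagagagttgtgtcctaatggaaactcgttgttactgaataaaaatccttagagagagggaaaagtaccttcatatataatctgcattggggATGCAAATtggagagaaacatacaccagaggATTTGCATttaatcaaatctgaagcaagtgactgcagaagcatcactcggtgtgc

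The Avil window held 2 matches of the 7-base core ATGCAAA or its reverse complement TTTGCAT, starting at -115 on the minus strand and -15 on the plus strand relative to the start. The Trpm5 window held 0. Of 7 windows of members (Avil, Trpm5, Plcb2, Gnat3, Ltc4s and 2 starts of Dclk1), 1 held the core, against 4.12% of all 32851 windows, and 0 held the full octamer ATGCAAAT or its reverse complement ATTTGCAT, against 1.60%. The 7-base core lies inside the octamer, so the searches overlap. The window of 1810046K07Rik, examined after its rank was seen, held 2 full octamers, at -86 and -54 on opposite strands. Of all windows 0.0974% (32) held 2 or more, and the other start of this gene in the table held 0. It was chosen for print because of these matches: the windows of Myo15b, Sh2d6 and Prok2, which also ranked among the 5 most alike, held 0 matches of the core. Pou2f3 itself had r = 0.12 with Avil and 0.28 with Trpm5 over the arrays. Without the 2 arrays farthest in Avil the first was 0, and without the 2 farthest in Trpm5 the second was -0.81. The action of Pou2f3 on any of these genes was not tested. A match is a description of the letters only.

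Beyond the members, further genes of the tuft programme were looked at in 3 lists. Of 14 taste receptor and signalling genes 9 were measured, and 0 passed the test in any comparison; at an unadjusted p under 0.05 limma gave 1 lower in ZsG plus versus ZsG minus mTEC, 0 in ZsG plus versus ZsG minus cTEC, and 2 higher in ZsG minus mTEC versus ZsG minus cTEC, where 13.4%, 18.7% and 12.3% of all genes had such a p in either direction. Their median log2 differences were -0.90, 0.99 and 1.38 in these comparisons, beside -0.33, -0.14 and 0.09 over all genes. Among the 3 brightest, Gng13, the gamma subunit that pairs with Gnb3 in taste cells, read 2652, 1089 and 2296 in ZsG plus cells, 6386, 2583 and 3714 in ZsG minus mTEC, and 1361, 1276 and 2306 in ZsG minus cTEC. All its medullary arrays lay above the cortical ones (1.31 ± 0.62, SE, adjusted p = 0.438), as for Pou2f3 and Plcb2. In this comparison 4 of the 9 genes lay wholly higher and 1 wholly lower, where 28.5% of all genes had separate groups in either direction. Of those 4, Tas1r1 and Sucnr1 were within the control range on all 9 arrays. Tas2r108, a bitter taste receptor, read 3955, 3243 and 808 in ZsG plus cells, 2988, 3299 and 1399 in ZsG minus mTEC, and 2149, 86.2 and 1628 in ZsG minus cTEC. The calcium release channel Itpr2 ran the other way between the reporter-negative groups, at 4694, 2476 and 6286 in ZsG plus cells, 2851, 1998 and 2487 in ZsG minus mTEC cells and 4074, 3359 and 6115 in ZsG minus cTEC (ZsG minus mTEC over ZsG minus cTEC -0.85 ± 0.57, adjusted p = 0.646).

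The eicosanoid enzymes held the single call among these lists, in ZsG plus versus ZsG minus cTEC, where 0.599% of all genes were called higher. Alox15, a lipoxygenase that oxidises arachidonic acid, rose in ZsG plus relative to ZsG minus cTEC. It read 20888, 14082 and 19865 in ZsG plus and 16760, 16463 and 14552 in ZsG minus mTEC, against 4207, 2003 and 2800 in ZsG minus cTEC. The ZsG plus and ZsG minus mTEC arrays overlapped, and both lay wholly above ZsG minus cTEC. Of all genes 23.3% and 28.5% had separate groups in these 2 comparisons with ZsG minus cTEC, in either direction. ZsG plus over ZsG minus cTEC was 2.65 ± 0.53 (SE; 6.28-fold, adjusted p = 0.0432), ZsG minus mTEC over ZsG minus cTEC was 2.47 ± 0.53 (adjusted p = 0.081), and ZsG plus over ZsG minus mTEC was 0.18 ± 0.53 (adjusted p = 0.906; -0.05 after quantile normalization). The call was lost when any 1 ZsG minus cTEC array was left out (2.39 to 2.93, adjusted p 0.131 to 0.165), with only the 6 arrays compared (adjusted p = 0.154), with array weights (adjusted p = 0.118) and after quantile normalization (adjusted p = 0.0534). Alox15 is also made by eosinophils and some macrophages. The 4 eosinophil markers summed to 1308 to 5258 in ZsG plus and 8052 to 9751 in ZsG minus mTEC, against 726 to 907 in ZsG minus cTEC, and per array 1 to 2 of them were within the control range in ZsG plus cells, 0 to 1 in ZsG minus mTEC cells and 3 to 4 in ZsG minus cTEC. In ZsG plus, Prg2 and Il5ra were above that range on all 3 arrays, Epx on 1 and Siglecf on none. Their part in the Alox15 values was not tested.

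Of the 9 eicosanoid enzymes listed 8 were measured, with medians of -0.45 in ZsG plus versus ZsG minus mTEC, 0.64 in ZsG plus versus ZsG minus cTEC and 1.08 in ZsG minus mTEC versus ZsG minus cTEC. At an unadjusted p under 0.05 limma gave 0, 2 higher and 3 higher in these comparisons. The shares over all genes, in either direction, were 13.4%, 18.7% and 12.3%. Ptgs2, the inducible cyclooxygenase of prostaglandin synthesis, resembled Alox15: it read 32726, 31943 and 39331 in ZsG plus and 35748, 31396 and 31005 in ZsG minus mTEC, against 10153, 9376 and 12112 in ZsG minus cTEC. Its difference of ZsG plus over ZsG minus cTEC, 1.72 ± 0.48 (SE), had an adjusted p of 0.109. Pla2g4a, the phospholipase that frees arachidonic acid, read 15232, 5215 and 3512 in ZsG plus cells, 14973, 11234 and 13045 in ZsG minus mTEC, and 3743, 2233 and 2626 in ZsG minus cTEC. Its medullary arrays lay wholly above its cortical ones (2.21 ± 0.65, adjusted p = 0.177), and the ZsG plus arrays spanned both, with replicate 1 above every medullary array and replicate 3 below the highest cortical one.

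Of 23 regulators, cytoskeletal genes and other tuft cell markers 19 were measured and 0 passed the test in any comparison. At an unadjusted p under 0.05 there were 2 lower in ZsG plus versus ZsG minus mTEC, 1 higher and 1 lower in ZsG plus versus ZsG minus cTEC, and 2 higher in ZsG minus mTEC versus ZsG minus cTEC. The shares over all genes were again 13.4%, 18.7% and 12.3%. The list's medians were -0.77, 0.47 and 0.93. In ZsG minus mTEC versus ZsG minus cTEC 17 of 19 differences were positive, where 53.9% of all genes had a positive difference, and no test was made of the list as a whole. The brightest were the surface glycoprotein Cd24a, Nrep and the progenitor transcription factor Sox9, none of them specific to tuft cells. Cd24a read 36745, 70618 and 57465 in ZsG plus cells, 32897, 37394 and 39252 in ZsG minus mTEC, and 18679, 21646 and 35448 in ZsG minus cTEC (ZsG plus over ZsG minus cTEC 1.13 ± 0.54, SE, adjusted p = 0.299). Nrep read 3646, 14016 and 30640 in ZsG plus cells, 18653, 17816 and 23902 in ZsG minus mTEC, and 1528, 2126 and 5093 in ZsG minus cTEC. Sox9 ranged over 5572 to 7591 in ZsG plus cells, 5480 to 8324 in ZsG minus mTEC cells and 2448 to 4527 in ZsG minus cTEC.

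Some tuft cell transcripts are also made by other cells, whose markers were summed on each array. Mast cell and basophil markers, of which 8 of 8 were measured, summed to 2025 to 6947 in ZsG plus and 2728 to 4138 in ZsG minus mTEC, against 974 to 1121 in ZsG minus cTEC. The sum of 6947, on ZsG plus replicate 1, included 4274 from Fcer1a alone. Per array, 4 to 6 of these 8 were within the control range in ZsG plus cells, 2 to 4 in ZsG minus mTEC cells and 7 to 8 in ZsG minus cTEC. Cpa3 was within it on all 9 arrays, while Cma1 read 599 to 847 in ZsG plus and 368 to 716 in ZsG minus mTEC, against 122 to 342 in ZsG minus cTEC. The 5 neuroendocrine markers summed to 9092 to 27359 in ZsG plus and 41327 to 44618 in ZsG minus mTEC, against 14892 to 19544 in ZsG minus cTEC. Insm1 alone read 33704, 35575 and 34457 in ZsG minus mTEC. In ZsG minus mTEC versus ZsG minus cTEC 4 of the 5 had positive differences. The other, Chga, read 2994, 1774 and 2753 in ZsG minus mTEC, against 3928, 5151 and 4908 in ZsG minus cTEC. Thymocyte markers (7 of 7 measured) summed to 6708 to 7077 in ZsG plus and 5179 to 8757 in ZsG minus mTEC, against 39404 to 53867 in ZsG minus cTEC. B cell markers (3 of 4 measured) summed to 1376 to 8470 in ZsG plus cells, 724 to 1788 in ZsG minus mTEC cells and 679 to 2692 in ZsG minus cTEC. The sum of 8470, on ZsG plus replicate 1, included 8136 from Cd79a alone. The part of any of these cells in the tuft cell gene values was not tested. Tslp, whose promoter activity the transgene reports, read 526, 23.4 and 953 in ZsG plus cells. It read 244, 472 and 359 in ZsG minus mTEC and 264, 88.8 and 576 in ZsG minus cTEC. On 4 of the 9 arrays Tslp was within the control range. Its log2 difference of ZsG plus over ZsG minus mTEC was -0.61 ± 1.30 (SE), and its 3 ranges overlapped.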

How the data were processed

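RNA of 9 samples was measured on Affymetrix mouse arrays, 1 per sample. Per the labels' protocols, 5 ng of RNA was amplified with an Ovation Pico kit. The authors' deposited intensities are linear values for 45101 probe sets; with 2% removed at each end the mean of every column was 1250, and the software is not given in the sources used here. Such scaling fixes the mean of an array, not its median or width.

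The log2 of each intensity was used, without an offset. Probe sets with 1 symbol (34958; 932 had several and 9211 none) were used, the brightest by mean log2 intensity for each gene, which left 18194 genes. The fit was made in R 4.3.3 with limma 3.58.1 (lmFit and eBayes, 1 coefficient per group, all 9 arrays, 6 residual degrees of freedom), with two-sided p-values adjusted by the Benjamini-Hochberg method over all genes and a threshold of 0.05. The 3 groups share 1 estimate of each gene's spread, so SEs between the ZsG minus groups also carry the wider ZsG plus spread. Likewise, SEs of ZsG plus differences carry the narrower spread of the other groups. The steps were tested on simulated data. Genes named are all members, members of 3 accompanying lists that passed the test or were the 3 brightest, the 5 genes most like Avil and Trpm5, and Tslp; single markers of other cell types, and the lowest-ranked list gene Lta4h, were picked after their values were seen. The members and lists were chosen with earlier results of these data known. Start regions came from RefSeq (GRCm38.p6), with an entry for 6 members. Alternatives changed normalization, an offset of 100, a filter, the probe set, the arrays fitted, array weights and the replicate block. The number of arrays limits the precision.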

Additional observations from a re-analysis of the deposited data

How the results depend on the processing

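No member was called in ZsG plus versus ZsG minus mTEC or in ZsG plus versus ZsG minus cTEC under any alternative run. In ZsG minus mTEC versus ZsG minus cTEC the count called higher was 1 with array weights (Pou2f3, 2.42, adjusted p = 0.0462) and 0 otherwise. With only the 6 arrays compared, 548 of all genes were called there, beside 114 in the main fit. That setting called 0 genes in ZsG plus versus ZsG minus mTEC and in ZsG plus versus ZsG minus cTEC, beside 40 and 317. Il25 and Ltc4s have no value under the filter at the 40th percentile, which left them out. Signs turned as follows; the cause was not tested. In ZsG plus versus ZsG minus mTEC, quantile normalization gave 0.17 for Il25 and -0.05 for Alox15, centring each array gave 0.47 for Dclk1, 0.34 for Il25 and 0.06 for Plcb2, and array weights gave 0.13 for Dclk1. The mean of all probe sets gave -0.69 for Dclk1 in ZsG plus versus ZsG minus cTEC and -0.24 for Trpm5 in ZsG minus mTEC versus ZsG minus cTEC, where array weights gave 0.07 for Alox5ap. With 1 array left out at a time, in ZsG plus versus ZsG minus mTEC the difference ran over -1.28 to 0.77 for Il25, -1.55 to 0.11 for Alox5ap, -0.57 to 0.40 for Dclk1, -0.45 to 0.81 for Gnb3 and -0.60 to 2.93 for Ltc4s; in ZsG plus versus ZsG minus cTEC the difference ran over -1.90 to 0.29 for Il25, -2.76 to 0.76 for Ltc4s, -0.01 to 0.86 for Plcb2 and -1.65 to 0.01 for Alox5ap; in ZsG minus mTEC versus ZsG minus cTEC the difference ran over -0.55 to 0.25 for Alox5ap, -1.62 to 0.57 for Il25 and -0.04 to 0.79 for Avil. The replicate numbers in the titles are shared by the groups, and no label says whether same-numbered arrays belong together. Deviations of same-numbered arrays correlated at -0.015 to 0.013, which cannot tell whether they shared an animal or a day. With the replicate block 0 members were called in all 3 comparisons, and Alox15 in ZsG plus versus ZsG minus cTEC had an adjusted p of 0.0954 (limma). In ZsG minus mTEC versus ZsG minus cTEC, Alox15 passed the test with an offset of 100 (0.0178), the filter (0.0323), only the 6 arrays (0.0384) and array weights (0.0118, adjusted p). Il25 and Ltc4s lie within the control range on 9 and 8 arrays, which limits any statement on them.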
